A study of Mus musculus with 8 samples.

Results

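Iron handling and oxidative stress response genes were followed in microglia across 4 states and 2 genotypes of mice. The set was a list of 10 gene symbols, Tfrc, Fth1, Ftl1, Slc40a1, Slc11a1, Hmox1, Txnrd1, Srxn1, Gclm and Prdx1, looked up among the 30702 genes that the array names by a single symbol, with the brightest probe set standing for each gene. Of the 10 members, 8 were named on the array. Gclm and Prdx1 lie only on probe sets that carry a further symbol, so they were not tested and their shared values are given apart. Genes were tested if at least 1 of the 8 arrays put them over the 50th percentile of its named probe sets (8.12 to 8.24 on the log2 scale), which kept 18234 genes. Among the members, 6 passed (Fth1, Ftl1, Slc40a1, Slc11a1, Hmox1 and Txnrd1) and 2 did not (Tfrc and Srxn1). Hmox1 passed only through the icKO EAE array, on which it was highest.

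The study profiled microglial RNA from the central nervous system of C57Black/6J mice on Affymetrix whole-transcript arrays, with 1 array for each of 8 groups. Control mice carry the label FL (F/F on the p50 array, and a source named wt on the iguratimod array), and icKO mice carry a conditional knockout that the series title calls specific to oligodendroglia and offers to model the secondary progressive form of multiple sclerosis. Each genotype was profiled naive, in experimental autoimmune encephalomyelitis (EAE, an induced immune attack on the central nervous system), in EAE treated with iguratimod (an antirheumatic small molecule), and in EAE labelled p50, a label that no source used here explains. The naive control array is the submitters' reference. The driver of the recombinase, the control mice's exact alleles, the age and number of animals behind an array, the dose of iguratimod, the day of EAE and the way the microglia were isolated are not given in the sources used here either.

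Transferrin receptor takes up transferrin-bound iron, ferritin heavy and light chains store it in the cytosol, ferroportin exports it, and Nramp1 moves divalent metals out of the phagosome. Haem oxygenase 1 frees iron from haem, and together with ferritin, the thioredoxin and glutathione enzymes it belongs to the genes that the transcription factor Nrf2 is known to switch on under oxidative stress. In macrophages and microglia these genes are known to respond both to iron supply, which acts on ferritin and transferrin receptor messages through iron regulatory proteins, and to inflammation.

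All values below are log2(intensity + 16), so a difference of 1 is a 2-fold difference for bright genes and is understated for dim ones. Array medians were close, from 243 to 269 on the linear scale. Since each group holds 1 array, the test was an additive limma model of state and genotype over the 8 arrays, with 3 residual degrees of freedom and p-values adjusted over all 18234 genes, and errors are its standard errors (SE). It measures the spread between these arrays only. The microglial markers were bright on every array, with 9 of 10 named and all 9 above the filter, among them Cx3cr1 at 18.15 to 18.43 and Siglech at 16.12 to 17.05. The summed intensity of neutrophil markers (10 of 10 named) ran from 6477 to 26328 on the naive and p50 arrays, and was 900197 on the control EAE array, 103157 on the icKO EAE array, and 41190 and 132662 on the control and icKO iguratimod arrays. Monocyte markers (7 of 8 named) summed to 2348 to 4129 on the naive and p50 arrays, 26475 and 27422 in EAE, and 4966 and 11924 under iguratimod. These leucocyte markers, among them S100a8, S100a9, Ly6c2 and Ms4a4c, therefore differed between the naive, EAE and iguratimod arrays. From EAE to iguratimod the neutrophil sum was lower in control mice but higher in icKO mice, and the monocyte sum was lower in both. The part of these markers in the members' values was not tested. Erythroid markers summed to 961 to 1291, with 4 of 10 named, haemoglobin genes not among them, and 3 tested. Markers of neurons lay below the filter in 6 of 6 cases, and of the 8 named oligodendrocyte markers 1 was tested. Immediate early and stress genes, among them Dusp1 and Zfp36, summed to 30180 on the control EAE array, to 98702 to 272558 on 6 others and to 430931 on the icKO p50 array. Xist, the RNA of the inactive X chromosome, read 15.90 and 16.64 on the p50 arrays and 7.71 to 8.30 on the other 6, so a difference in the sex of the mice cannot be told apart from p50 in any comparison below.

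**Figure D1:**
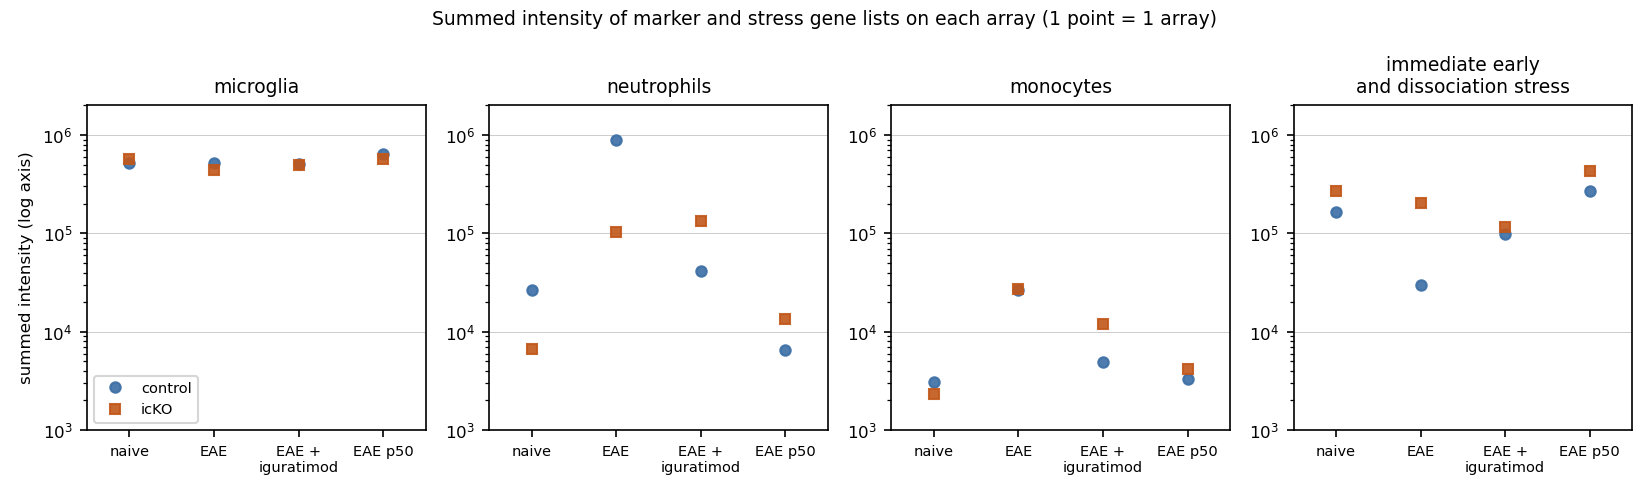
Summed linear intensity (log axis) of the marker lists for microglia, neutrophils and monocytes and of immediate early and stress genes, for 4 states, with a circle for the control and a square for the icKO array. The neutrophil sum was 900197 on the control EAE array and 103157 on the icKO EAE array, while the microglial sum stayed between 446365 and 635365.

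Promoter sequences from RefSeq (build GRCm38.p6) were found for 8 of the 10 members, Hmox1 and Slc40a1 being the exceptions. Those shown are the 250 bases before a start that the RefSeq promoter table lists, for Ftl1 and Slc11a1, whose levels varied among the arrays, for Fth1, the partner of Ftl1, and for Srxn1, which held the most matches to stress-factor motifs. Capitals mark matches on either strand to TGANNNNGC, the core read by Nrf2 with its Maf partners, to TGANTCA, read by AP-1, and to GAGGAA, a core read by the myeloid factor PU.1.
Ftl1, chr7:45459887-45460136, minus strand: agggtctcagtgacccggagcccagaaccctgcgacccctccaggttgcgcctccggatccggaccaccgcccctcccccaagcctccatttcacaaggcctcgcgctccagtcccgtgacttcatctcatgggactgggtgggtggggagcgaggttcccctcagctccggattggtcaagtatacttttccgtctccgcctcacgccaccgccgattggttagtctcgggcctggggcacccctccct
Fth1, chr19:9982396-9982645, plus strand, the second of 2 listed starts: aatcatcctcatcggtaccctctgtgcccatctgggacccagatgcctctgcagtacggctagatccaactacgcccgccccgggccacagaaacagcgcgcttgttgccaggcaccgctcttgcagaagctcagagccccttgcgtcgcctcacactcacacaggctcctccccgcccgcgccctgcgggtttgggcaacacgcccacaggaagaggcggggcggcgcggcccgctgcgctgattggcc
Slc11a1, chr1:74374953-74375202, plus strand: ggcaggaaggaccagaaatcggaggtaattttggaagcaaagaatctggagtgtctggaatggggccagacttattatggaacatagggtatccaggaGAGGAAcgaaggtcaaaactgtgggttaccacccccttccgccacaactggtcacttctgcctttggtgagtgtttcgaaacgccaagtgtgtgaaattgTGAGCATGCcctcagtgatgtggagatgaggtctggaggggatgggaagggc
Srxn1, chr2:152105274-152105523, plus strand: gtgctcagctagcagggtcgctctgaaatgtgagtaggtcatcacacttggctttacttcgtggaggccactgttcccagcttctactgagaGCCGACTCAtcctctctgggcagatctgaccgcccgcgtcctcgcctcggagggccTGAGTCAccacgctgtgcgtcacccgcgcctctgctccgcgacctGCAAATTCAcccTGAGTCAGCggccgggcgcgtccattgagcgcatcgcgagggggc
The Slc11a1 record itself begins at 74375014, so 189 bases of its window lie inside the gene, as do all 250 of the Fth1 window and 0 of the other windows shown. Positions are counted from the listed start. The Srxn1 window held 3 Nrf2 cores, starting at -158, -57 and -45 from that start, and 2 AP-1 sequences, at -102 and -45, the last of which overlaps the core at -45. The Slc11a1 window held an Nrf2 core at -52 and the PU.1 core at -152. The Ftl1 and Fth1 windows held none of these letters. Among the windows not shown, Prdx1 had an Nrf2 core at -133, AP-1 sequences at -237 and -131, the latter overlapping the core, and a PU.1 core at -244. Gclm had an Nrf2 core at -134. Txnrd1 had an Nrf2 core in 2 of its 3 listed windows and the PU.1 core in the other, and Tfrc had none in either window. The Nrf2 core stood in 35.2% of all 32851 windows of that length, the AP-1 sequence in 6.75% and the PU.1 core in 23.3%, so a match is a description of these letters and not a binding site.

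Ftl1, the ferritin light chain, varied most of the members, with a 4.91-fold range over the arrays. It read 12.04 on the control and 11.94 on the icKO naive array, 13.11 and 13.66 in EAE, 11.36 and 12.64 in iguratimod-treated EAE, and 12.28 and 12.44 in p50 EAE, control first. Both EAE arrays lay above the other 6, and the iguratimod arrays spanned the naive and p50 values. EAE exceeded naive by 1.06 in control mice (2.09-fold) and by 1.71 in icKO mice (3.28-fold). The fitted difference was 1.39 ± 0.32 SE (95% confidence interval 0.59 to 2.18), with an adjusted p of 0.0844 in limma, so it did not pass. Without the iguratimod pair the same difference passed (adjusted p = 0.0379 in limma), and 603 genes passed against 688 with all arrays. Leaving out either iguratimod array gives the same result, so this is 1 result. Ftl1 differed between genotypes by 1.28 on that pair, which counts as spread in the fit, and by -0.10 to 0.55 in the other states. Iguratimod minus EAE was -1.75 in control mice and -1.02 in icKO mice, fitted at -1.38 ± 0.32 (adjusted p = 0.505 in limma). Neutrophil marker intensity was also lower on the iguratimod than on the EAE array in control mice (41190 against 900197), and was not in icKO mice (132662 against 103157). Monocyte markers were lower under iguratimod in both genotypes, at 4966 against 26475 in control and 11924 against 27422 in icKO mice, with 7 of 7 tested markers below 0 and a median difference of -0.97. The part of both lists in the result was not tested. p50 EAE minus EAE was -0.82 in control and -1.22 in icKO mice, fitted at -1.02 ± 0.32 (adjusted p = 0.165). Since fewer cells of a type and less RNA per cell cannot be told apart in bulk RNA, these differences cannot be read as differences per cell.

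The Ftl1 probe set carries 3 gene identifiers, and ferritin genes have near-identical processed copies, so its value may hold signal from more than the Ftl1 locus. A pair of other probe sets name Ftl1 together with Ftl2 or with microRNA genes of the Mir692 family. In EAE they exceeded naive by 1.56 and 1.81 in control mice and by 2.28 and 2.22 in icKO mice. Under iguratimod they differed from EAE by -2.22 and -2.27 in control mice and by -1.17 and -1.30 in icKO mice. All 3 ferritin light chain probe sets were thus brightest on the icKO EAE array and dimmest on the control iguratimod array.

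Fth1, the ferritin heavy chain, which carries the ferroxidase activity of the shell, had a narrower range of 1.40-fold. It read 9.52 and 9.65 naive, 9.91 and 10.004 in EAE, 9.58 and 9.99 under iguratimod, and 9.90 and 9.86 in p50 EAE, control first. The naive arrays and the control iguratimod array were the 3 lowest. EAE exceeded naive by 0.37 ± 0.15 in the fit (adjusted p = 0.247 in limma). The difference between iguratimod and EAE was -0.17 with an interval from -0.53 to 0.19.

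Tfrc, the transferrin receptor, did not reach the filter on any array. Its values spanned 7.17 to 7.36, a 1.14-fold range, lowest on the icKO iguratimod and highest on the control p50 array. In a fit of all named genes without the filter, EAE against naive gave 0.05 ± 0.10 (interval -0.20 to 0.30), and changes of this dim probe set would be understated.

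Slc40a1, which encodes the iron exporter ferroportin, read 9.57 and 9.61 naive, 9.52 and 8.76 in EAE, 9.57 and 8.96 under iguratimod, and 9.83 and 9.74 in p50 EAE, control first. The icKO EAE and icKO iguratimod arrays were the lowest, and the other 6 lay within 9.52 to 9.83. EAE minus naive was -0.85 in icKO mice (1.80-fold lower), whereas in control mice the difference was -0.05 and turned to 0.04 when arrays were centred on their medians. The fitted EAE difference over both genotypes was -0.45 ± 0.23 (adjusted p = 0.346), and p50 EAE against EAE gave 0.65 ± 0.23 (adjusted p = 0.195). The difference between genotypes of the EAE change was -0.80 ± 0.40 (adjusted p = 0.874), in a limma model that leaves 1 residual degree of freedom. The 9 microglial markers summed to 446365 and 501569 on the icKO EAE and icKO iguratimod arrays and to 504340 to 635365 on the others. Single markers did not share 1 order: P2ry12 was lowest on those arrays (12.67 and 12.79), C1qa read 14.02 on icKO EAE against 13.63 on control naive, and Csf1r was lowest on control iguratimod (15.28). The part of these markers in the Slc40a1 values was not tested.

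Slc11a1 encodes Nramp1, the metal transporter of phagosomes in myeloid cells. It read 10.70 and 10.85 naive, 11.65 and 11.51 in EAE, 10.64 and 11.56 under iguratimod, and 12.07 and 11.96 in p50 EAE, control first. Both p50 arrays were above all others and both naive arrays were low. The iguratimod arrays split, the control one lying near the naive and the icKO one near the EAE values. Neutrophil markers (132662 against 41190) and monocyte markers (11924 against 4966) were also higher on the icKO than on the control iguratimod array. In p50 EAE against naive 9 of 9 immediate early and stress genes (median 0.78) and 6 of 9 microglial markers lay above 0, and 8 of 9 neutrophil markers below. The part of these lists in the Slc11a1 values was not tested. Slc11a1 in p50 EAE exceeded naive by 1.37 in control mice (2.59-fold) and by 1.12 in icKO mice (2.17-fold), fitted at 1.24 ± 0.28 with an adjusted p of 0.0966 in limma. Without the iguratimod pair this difference passed (adjusted p = 0.0461 in limma), and 219 genes passed against 137 with all arrays. Leaving out either iguratimod array gives the same result, so this is 1 result. Slc11a1 differed between genotypes by 0.93 on that pair, which counts as spread in the fit, and by -0.14 to 0.15 in the other states. EAE exceeded naive by 0.80 ± 0.28 (adjusted p = 0.195). Iguratimod against EAE was -1.01 in control and 0.06 in icKO mice, and that difference between genotypes was 1.07 ± 0.29 (adjusted p = 0.588 in limma).

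**Figure D2:**
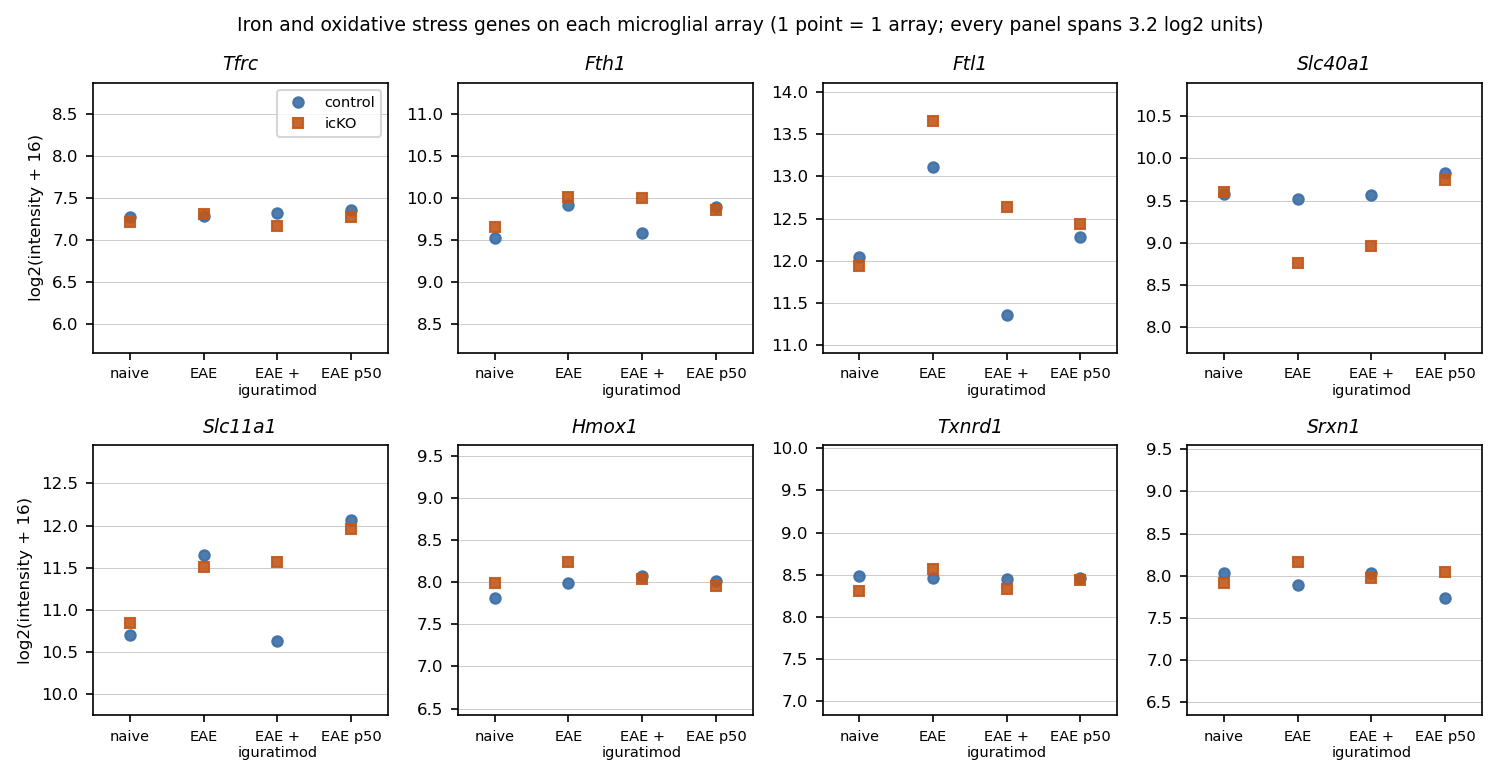
Level of the 8 members named on the array, as log2(intensity + 16), in naive, EAE, iguratimod-treated EAE and p50 EAE microglia, with a circle for the control and a square for the icKO array and 1 point for each array. Ftl1 was highest in EAE (13.11 and 13.66), Slc40a1 lowest on the icKO EAE and iguratimod arrays (8.76 and 8.96), and Slc11a1 highest in p50 EAE (12.07 and 11.96).

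Hmox1, the inducible enzyme that opens the haem ring, stayed dim, at 7.81 and 7.99 naive, 7.99 and 8.24 in EAE, 8.08 and 8.04 under iguratimod and 8.01 and 7.96 in p50 EAE, control first. The icKO EAE array was highest and control naive lowest, and the other 6 lay within 7.96 to 8.08. The fitted EAE difference was 0.22 ± 0.14 (interval -0.12 to 0.55), and the intervals of all 6 comparisons held 0.

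Txnrd1, cytosolic thioredoxin reductase, which keeps thioredoxin reduced, lay between 8.30 and 8.57, with icKO naive lowest and icKO EAE highest. EAE against naive gave 0.12 ± 0.13 (interval -0.19 to 0.44), iguratimod against EAE -0.13 ± 0.13, and icKO against control -0.06 ± 0.09. Srxn1, sulfiredoxin, which repairs overoxidised peroxiredoxins, was below the filter on all arrays and spanned 7.74 on control p50 to 8.16 on icKO EAE. Its EAE difference in the fit without the filter was 0.05 ± 0.14 (interval -0.31 to 0.41). Of both genes, the naive and EAE arrays overlapped.

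Prdx1, a peroxiredoxin that removes hydrogen peroxide, is read only through a probe set shared with the pseudogene Gm21399. That probe set read 8.83 and 8.99 naive, 9.59 and 9.75 in EAE, 9.40 and 9.44 under iguratimod, and 8.86 and 9.17 in p50 EAE, control first. Both EAE and both iguratimod arrays lay above all naive and p50 arrays. EAE exceeded naive by 0.76 in control and by 0.75 in icKO mice, with no test. Gclm, the regulatory subunit of the rate-limiting enzyme of glutathione synthesis, shares its probe set with Gm6061. This probe set read 8.03 to 8.13 on 7 arrays and 8.39 on icKO EAE.

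**Figure D3:**
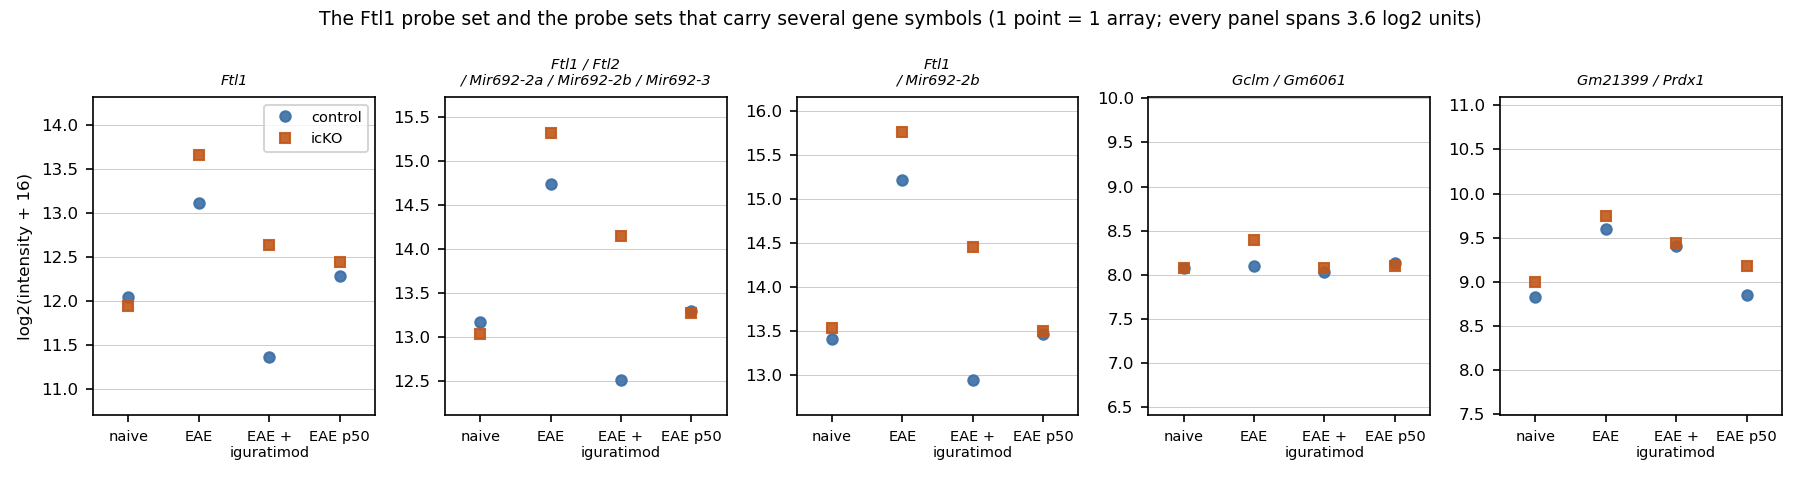
Level, as log2(intensity + 16), of the Ftl1 probe set and of the probe sets whose annotation joins Ftl1, Gclm or Prdx1 to another symbol, with 1 point for each array, a circle for control and a square for icKO. All 3 ferritin light chain probe sets were brightest on the icKO EAE array, and the Prdx1 probe set read 9.40 to 9.75 in EAE and iguratimod-treated EAE against 8.83 to 9.17 on the other arrays.

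Over the comparisons, no tested member passed limma's adjusted p of 0.05. In EAE against naive 0 of 6 passed, where 688 genes (3.77%) did, and 3 of 6 (Ftl1, Slc11a1 and Fth1) had an unadjusted p under 0.05, as had 19.2% of all genes. Without any 1 of the 4 naive and EAE arrays no gene passed in that comparison. The 6 tested members had a median difference of 0.30 and 5 lay above 0, against a median of 0.01 over all tested genes, with Hmox1 counted although it passed the filter only through an EAE array. The members were chosen with earlier results of these data known, so this is a description and the shift was not tested. For iguratimod-treated EAE against EAE no member and no gene (0%) passed in limma, with 1 member (Ftl1) and 1551 genes at an unadjusted p under 0.05. Iguratimod-treated EAE against naive gave 0 members and 1 gene (0.00548%), and at an unadjusted p under 0.05 0 members and 1994 genes. In p50 EAE against naive 0 members and 137 genes (0.751%) passed in limma, with Slc11a1 and 20.5% of genes at an unadjusted p under 0.05. In p50 EAE against EAE 0 members and 494 genes (2.71%) passed, with Ftl1 and Slc40a1 and 19.5% of genes at an unadjusted p under 0.05. These comparisons share arrays, so their values are not independent of each other.

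Counted by size with no test, Ftl1 was the member at least 2-fold above naive in EAE in both genotypes, as were 2.6% of tested genes, and the member at least 2-fold lower under iguratimod than in EAE in both, as were 0.236%. The second of these calls was lost after further quantile normalization, which put iguratimod minus EAE at -0.87 in icKO mice. Slc11a1 was the member at least 2-fold above naive in p50 EAE in both genotypes, beside 1.62% of genes. No member was at least 2-fold lower in p50 EAE than in EAE in both genotypes, against 1.65% of genes.

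**Figure D4:**
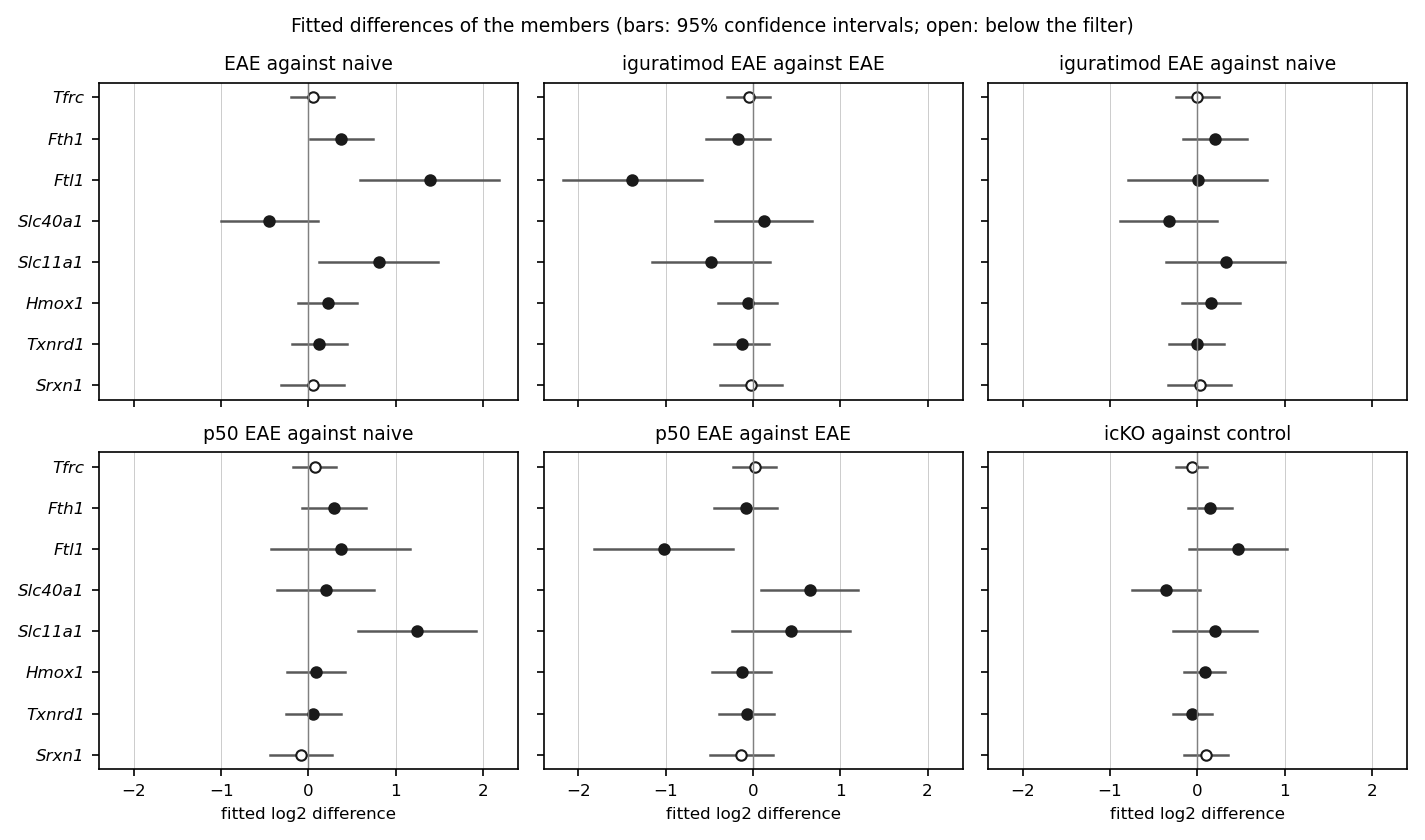
Fitted log2 differences of the 8 named members in 6 comparisons of the additive limma model, with 95% confidence intervals as bars, and open circles for Tfrc and Srxn1, which were fitted without the filter. The intervals that leave out 0 belong to Ftl1, Slc11a1 and Fth1 in EAE against naive, to Ftl1 under iguratimod, to Slc11a1 in p50 EAE against naive, and to Ftl1 and Slc40a1 in p50 EAE against EAE.

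The widest difference of a tested member between genotypes was that of Ftl1 under iguratimod. Averaged over the 4 states, no member and no gene (0%) passed icKO against control in limma, with 0 members and 990 genes at an unadjusted p under 0.05. Ftl1 gave 0.47 ± 0.23 and Slc40a1 -0.36 ± 0.16, each with an adjusted p of 0.882. On naive arrays 0 members were at least 2-fold apart, where 1.9% of genes were, and in EAE 0 members, where 1.84% of genes were. In EAE the icKO array had Ftl1 higher by 0.55 and Slc40a1 at -0.76 from control. Immediate early and stress genes summed to 203885 on that icKO array and 30180 on the control array, and neutrophil markers to 103157 and 900197. Averaged over the states, 9 of 9 tested stress genes lay above 0 in icKO against control (median 1.09), and the part of these lists in the members' genotype differences was not tested. Under iguratimod Ftl1 was 2.42-fold higher in icKO (1.28 on the log2 scale) and was the member past 2-fold, where 3.21% of genes were. On those arrays Slc11a1 was 0.93 and Fth1 0.41 higher and Slc40a1 lower, at -0.61. Neutrophil markers (132662 against 41190) and monocyte markers (11924 against 4966) were higher on the same icKO array, and their part in these differences was not tested. In p50 EAE 0 members were past 2-fold, against 0.378% of genes, and the largest member difference was 0.30, for Srxn1. No interaction of genotype with EAE, iguratimod or p50 passed for any gene in limma, and the lowest adjusted p values were 0.522, 0.588 and 0.999994, with 1131, 1529 and 463 genes at an unadjusted p under 0.05.

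Other genes of these pathways were described from 5 lists that hold no member, 66 tested genes in all. The lists too were chosen with earlier results of these data known, so their medians and counts are descriptions. In EAE against naive 3 of the 66 rose (4.55%, near the 3.77% of all tested genes that passed) and 0 fell, and 50 lay above 0 with a median difference of 0.21 against 0.01 over all tested genes. Txn1, the thioredoxin that Txnrd1 reduces, read 10.24 and 10.46 naive, 12.09 and 12.50 in EAE, 10.65 and 11.63 under iguratimod and 10.70 and 10.56 in p50 EAE, control first. It rose 3.85-fold in EAE (1.94 ± 0.26, adjusted p = 0.0258 in limma) and fell from EAE to p50 EAE by 1.66 ± 0.26 (adjusted p = 0.0404). Prdx4, a peroxiredoxin of the endoplasmic reticulum, rose in EAE by 1.27 ± 0.22 (adjusted p = 0.0411). Taldo1, transaldolase of the pentose phosphate pathway, which is the Nrf2-list gene that passed, rose by 0.94 ± 0.13 (adjusted p = 0.0273). In the same comparison the monocyte markers Ly6c2, Ms4a4c and Chil3 and the dividing-cell genes Mki67, Top2a and Ccna2 passed. Above 0 lay 7 of 7 monocyte, 9 of 9 neutrophil and 8 of 8 dividing-cell genes. Of the microglial markers 7 of 9 lay below 0 (median -0.43), as did 9 of 9 immediate early and stress genes (median -0.55). The part of all these lists in the pathway values was not tested. Each of the 3 pathway calls in EAE was lost when any 1 of the 4 naive and EAE arrays was left out. Beside the 3.77% of all genes, the thioredoxin and peroxide list had 2 of 12 tested members rising in EAE and a median difference of 0.42, the Nrf2 list 1 of 12 and 0.19, the glutathione list 0 of 13 and 0.28, the haem list 0 of 13 and 0.16, and the iron list 0 of 16 and 0.15.

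Under iguratimod 0 of the 66 passed against EAE in limma, as did 0 of all 18234 tested genes, and 14 of the 66 lay above 0. The median of the 66 was -0.16, against -0.008 over all tested genes. In the fit over both genotypes, 7 of 7 monocyte markers (median -0.97), 8 of 9 neutrophil markers (median -1.74) and 7 of 8 dividing-cell genes lay below 0. The neutrophil sum was lower under iguratimod than in EAE in control mice (41190 against 900197) but higher in icKO mice (132662 against 103157). The part of these 3 lists in the pathway values was not tested. In p50 EAE against EAE 1 of 66 rose and 3 fell, 6.06% in all, against 2.71% of all tested genes. In that comparison 9 of 9 neutrophil markers lay below 0 (median -3.61), Ly6c2 among the monocyte markers fell, and 4 of 8 dividing-cell genes fell. Immediate early and stress genes lay above 0 in 9 of 9 cases (median 1.71, 3 passing). So did 9 of 9 microglial markers (median 0.88, 1 passing). The part of these lists in the pathway values was not tested. Lrp1, the receptor that clears haem bound to haemopexin, rose, by 1.53 ± 0.17 (adjusted p = 0.0165), and it also rose in p50 EAE against naive, 3.88-fold (adjusted p = 0.0102). The haemoglobin scavenger haptoglobin, Hp, fell by 1.40 ± 0.24 (adjusted p = 0.047), and the microsomal glutathione transferase Mgst1 fell by 0.95 ± 0.15 (adjusted p = 0.0416), beside Txn1. These p50 calls were lost when any 1 array of the compared states was left out, except that of Hp without the icKO EAE array. No gene of the iron list passed in any comparison in limma. Its largest EAE differences were 1.43 ± 0.42 for Lcn2, which binds iron-loaded siderophores and is also made by neutrophils (adjusted p = 0.139), and 1.23 ± 0.24 for Pcbp2, an iron chaperone (adjusted p = 0.0538). In p50 EAE against EAE Lcn2 gave -1.75 ± 0.42 and transferrin, Trf, 0.56 ± 0.18 (adjusted p = 0.0928 and 0.17). Averaged over states, 0 of 66 differed between genotypes in limma, as did 0 of all 18234 tested genes.

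**Figure D5:**
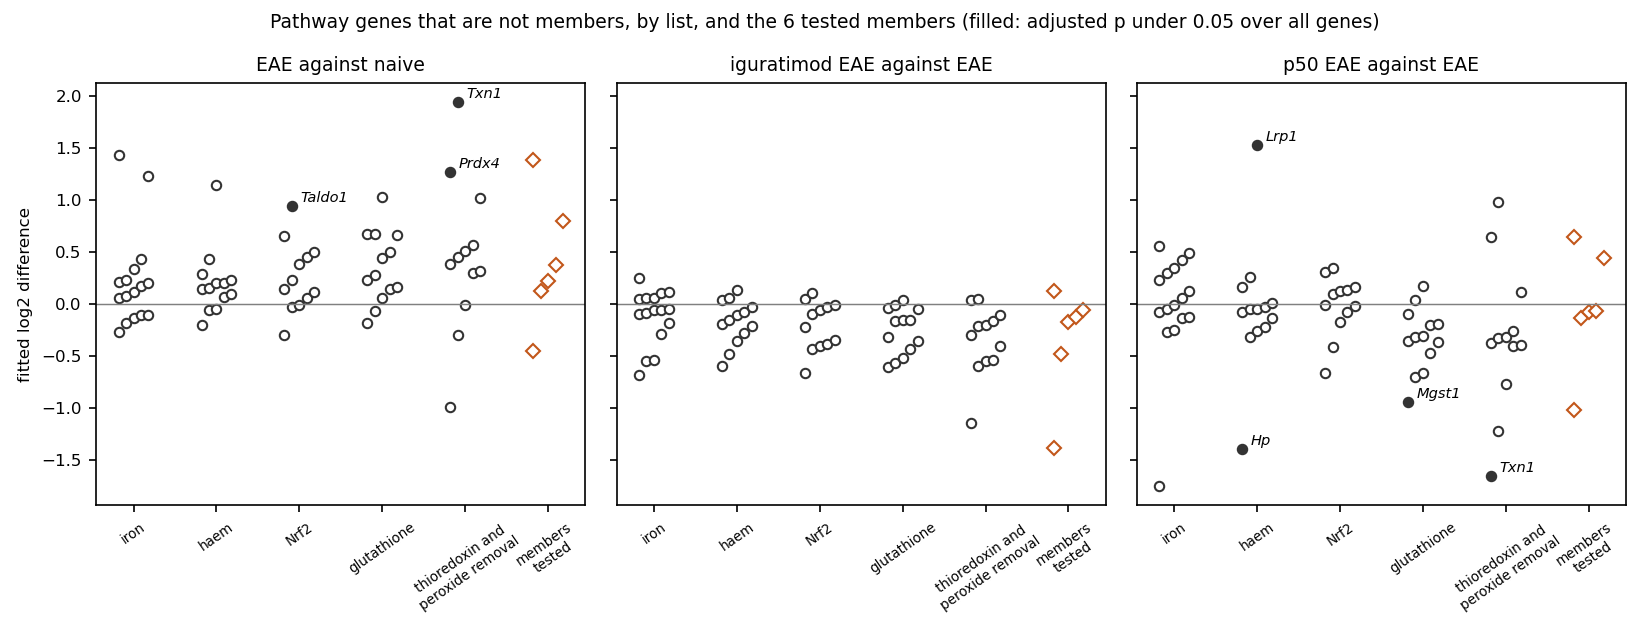
Fitted log2 differences of 66 tested pathway genes in 5 lists that hold no member, and of the 6 tested members (diamonds), for EAE against naive, iguratimod-treated EAE against EAE and p50 EAE against EAE. Filled circles have an adjusted p under 0.05 over all genes, and in EAE against naive these are Txn1, Prdx4 and Taldo1.

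For the 3 tested members whose range was at least 1 log2 unit, the genes with the most similar pattern were sought among 1117 protein-coding genes of the same range, by Pearson correlation over the 8 arrays. The Ftl1 pattern was most like that of Cxcr4, a chemokine receptor (r = 0.96), Tgfbi, a secreted matrix protein (r = 0.95), and Aldoa, the glycolytic aldolase (r = 0.95). Cxcr4 read 7.45 and 6.86 naive, 8.49 and 10.59 in EAE, 6.37 and 8.47 under iguratimod and 7.37 and 7.93 in p50 EAE. Slc40a1 was most like P2ry12, the ADP receptor of homeostatic microglia (r = 0.93), Ltc4s (0.93) and Tm6sf1 (0.89). Slc11a1 was most like Ptprj, Extl3 and Dock2, each with r = 0.99. An r of at least 0.9 was reached by 24 of the 1117 genes for Ftl1, 2 for Slc40a1 and 87 for Slc11a1. These values describe 8 arrays that share states and genotypes.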

How the data were processed

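TRIzol and column purification gave the RNA of 8 groups of mouse microglia, and a GeneChip pico kit labelled it, per the labels' protocols. The deposited values are linear intensities of 65956 array rows, made with Affymetrix Expression Console per the submitters' processing notes. Probe summarisation, normalization and genome build are not given in the sources used here. The depth of an array has no count, so the number of arrays limits the precision.

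Rows were named through the platform annotation, with 1135 symbols updated through RefSeq (GRCm38.p6). A single symbol named 31258 rows, while 1492 with several symbols and 33206 unnamed here were not used as genes. The deposited intensities were taken as log2(intensity + 16) with no further normalization. limma 3.58.1 in R 4.3.3 (lmFit and eBayes) fitted genotype and state additively to all 8 arrays, at a Benjamini-Hochberg adjusted p of 0.05 over the 18234 genes tested. A difference of at least 2-fold was called where 1 array was set against 1 array. The model was tested on simulated data.

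Alternatives were other pseudocounts (1 and 64), filters (none and the 70th percentile), further quantile normalization, centring of arrays, the mean over probe sets, a trended and robust prior, and leaving out arrays. Named were the members, pathway genes that passed in a comparison or otherwise had the largest differences in EAE against naive and p50 EAE against EAE, the 2 brightest genes of a marker list, and the 3 genes most like a member. Also named, outside these rules, were Chil3, Mki67, Top2a and Ccna2, which passed in EAE against naive, and the microglial markers C1qa and Csf1r. The members and lists were chosen with earlier results of these data known. The comparison with Xist was added after the data were seen. The gene targeted in icKO mice is not reported here.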

Additional observations from a re-analysis of the deposited data

Results flagged for a closer look

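Ftl1 under iguratimod differed from naive in opposite directions in the genotypes. Iguratimod-treated EAE minus naive was -0.6842 in control mice (11.36 against 12.04) and 0.6943 in icKO mice (12.64 against 11.94). The difference between the genotypes was not tested in this comparison. The directions were kept after further quantile normalization (-0.68 and 0.63) and after centring (-0.69 and 0.71). Neutrophil markers summed to 41190 and 132662 on the control and icKO iguratimod arrays and to 26328 and 6721 on the naive ones, and their part in the result was not tested.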

How the results depend on the processing

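Of 612 values of the 6 tested members under other settings, 570 moved by no more than their standard error with no call made, 36 moved by more, and 6 newly passed. The latter were Ftl1 in EAE against naive (adjusted p = 0.0379) and Slc11a1 in p50 EAE against naive (0.0461), each without the iguratimod pair or without either of its arrays, since a lone array of a state adds nothing to the spread. The number of members passing was then 1 in each of these comparisons, and leaving out single arrays gave 0 to 1. Over the settings Ftl1 in EAE against naive ranged from 1.01 to 1.77, Slc11a1 in p50 EAE against naive from 1.03 to 1.45 and Slc40a1 in EAE against naive from -0.72 to -0.18, and these kept their sign. Other comparisons of the same members did not all do so. Ftl1 in iguratimod-treated EAE against naive (-0.53 to 0.54) kept it in 14 of 17 settings. Slc40a1 in iguratimod-treated EAE against EAE kept it in 15 of 17, and Slc11a1 in icKO against control in 15 of 18.

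The number of genes passing was less stable. In EAE against naive 688 became 268 after quantile normalization and 231 without the p50 pair, and leaving out single arrays gave 0 to 603, with 0 without any of the 4 naive and EAE arrays. In p50 EAE against naive 137 became 366 with the 70th percentile filter, 414 after quantile normalization, 387 after centring and 219 without the iguratimod pair, and single arrays gave 50 (without icKO p50) to 219. In p50 EAE against EAE single arrays gave 67 (without control EAE) to 427. In iguratimod-treated EAE against naive 1 became 3 with the 70th percentile filter and 0 without the p50 pair, and every single array left out gave 0. Members past 2-fold between genotypes under iguratimod were 2 after quantile normalization or centring and 3 at 1.5-fold, and in EAE 1 at 1.5-fold. The shares of all tested genes in these settings were not counted, so these member counts have no background to be read against. Ftl1 was no longer 2-fold lower under iguratimod than in EAE in icKO mice after quantile normalization (-0.87). Centring and quantile normalization moved the median of all genes in control p50 minus naive by 0.11 and 0.10. The calls of Txn1, Prdx4 and Taldo1 in EAE were lost in 4, 10 and 7 of 18 settings, and those in p50 EAE against EAE of Lrp1, Txn1, Mgst1 and Hp in 4, 8, 9 and 10 of 17, in each case without changing sign and including each array left out of the compared states, except icKO EAE for Hp. Lrp1 in p50 EAE against naive was lost in 4 of 17. Beyond the additive model, which compares states within genotype and genotypes within state, no pairing of arrays was used.

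With 1 array for each group, the spread comes from how far genotype and state differences fail to add up, and a genotype difference that depends on state counts as spread. Dim members (Tfrc, Srxn1, Hmox1) lie near the background, where changes are compressed, and detection calls were not used.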
